A study of Mus musculus with 59 samples.

Results

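The Kcnh family of potassium channel genes was followed through 5 brain regions of mice that model spinocerebellar ataxia type 1 (SCA1). Its 7 members here are Kcnh1, Kcnh2, Kcnh3, Kcnh4, Kcnh5, Kcnh7 and Kcnh8, out of 54232 mouse genes in the count tables. The family was chosen by measured values of these libraries, namely the lower Kcnh3 level in 154Q mice than in WT mice in every region, with the largest fold in the hindbrain. All differences between 154Q and WT below are therefore descriptions without a test. The WT libraries were part of that choice, so the tests of Kcnh3 in 154Q-AXH against WT are not independent of it. The 8th family gene, Kcnh6, is given by its levels for completeness.

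Channels of this family open when the membrane is depolarized and let potassium leave the cell, which sets the resting potential and limits repetitive firing. They form 3 groups. The EAG group (Kcnh1 and Kcnh5) carries slow outward currents, and variants of both genes are known in childhood epilepsy. The ERG group (Kcnh2, Kcnh6 and Kcnh7) opens on recovery from inactivation, and KCNH2 is the channel of the heart whose loss gives long QT syndrome. The ELK group (Kcnh3, Kcnh4 and Kcnh8) opens near the resting potential, and Kcnh3 is known to restrain the excitability of hippocampal pyramidal neurons.

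Polyadenylated RNA of 12 mice, 10 weeks old, labelled as C57BL/6 and backcrossed to C57BL/6J per the study's methods, was sequenced with 1 library for each mouse and region, the regions being cortex, striatum, hippocampus, brainstem and cerebellum. The groups were 4 wildtype mice (WT-70 and WT-77, with WT-220 and WT-221), 4 Atxn1 154Q/2Q knockin mice (154Q-69 and 154Q-71, with 154Q-75 and 154Q-76) and 4 mice, named 154Q-AXH, with the genotype Atxn1 154Q[V591A;S602D]/2Q (154Q-AXH-207 and 154Q-AXH-209, with 154Q-AXH-217 and 154Q-AXH-218). Values below follow this order of mice, and the brainstem had no 154Q-AXH-217. Both mutants carry the expanded 154Q allele over an unexpanded 2Q allele in every cell that expresses Atxn1, and in 154Q-AXH the 2 substitutions, made with CRISPR/Cas9 in the expanded allele, disrupt binding of ATXN1 to the repressor Capicua (CIC). There were 59 libraries. Every 154Q mouse has a number under 100 and every 154Q-AXH mouse one over 200, while WT mice have both, so a difference between the mutants cannot be told apart from one between these number series except through the WT mice.

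Libraries held 64416717 to 106215143 counted read pairs in cerebellum, 75374074 to 112343574 in brainstem, 69468491 to 106942535 in hippocampus, 28058359 to 54719126 in striatum and 34530406 to 46174761 in cortex. Atxn1 itself had a log2 fold change of 0.02 to 0.30 in the mutants against WT and was not called, and counts show neither the repeat nor the substitutions. Some libraries stood apart. The hippocampal library of mouse 154Q-76 had 363.7 CPM (counts of a gene scaled to the counts of its library) over 7 brainstem markers, against 0.384 to 1.87 CPM in the other hippocampal libraries, and it had Xist at 187.1 CPM, which was 0.213 to 5.30 CPM in this mouse's other regions. The cortical library of mouse WT-221 had Xist at 470.0 CPM and Ddx3y at 0.897 CPM, unlike the other regions of that mouse, where Xist was at most 5.92 CPM. The labels and the deposited names of a pair of cortical libraries, 154Q-76 and 154Q-AXH-207, disagree, and the labels were followed. In striatum, WT-220 and 154Q-AXH-217 had 5388 and 2877 CPM over 6 striatal markers and 103.2 and 68.9 CPM over 4 cortical markers, whereas the other 10 striatal libraries had 522.4 to 2046 and 210.2 to 281.2 CPM, close to the 276.0 to 313.9 CPM of the cortical markers in cortex. Calls of members in these regions are given with and without them. Mice 154Q-75 and 154Q-AXH-217 had Xist at 421.5 to 1161 CPM and Ddx3y at no more than 1.24 CPM in every region sequenced. Among WT libraries only cortical WT-221 had this pattern. These sex genes were thus not balanced between the genotypes, and no fit had sex as a covariate. In whole tissue, fewer cells of a type and less RNA per cell cannot be told apart.

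The members lie on 7 chromosomes of the GRCm38 build. Kcnh3 (ENSMUSG00000037579) spans chr15:99224861-99242817 on the plus strand and shares 1 exon base with Mcrs1 on the other strand. Kcnh4 (ENSMUSG00000035355) spans chr11:100740376-100759942 on the minus strand, and Kcnh5 (ENSMUSG00000034402) spans chr12:74897220-75177332 on the minus strand. Kcnh1 lies at chr1:192190774-192510159 (plus), Kcnh2 at chr5:24319589-24351604 (minus), Kcnh7 at chr2:62693414-63184287 (minus) and Kcnh8 at chr17:52602709-52979194 (plus). Kcnh7 shares 696 exon bases, 4.57% of its exons, with Gca on the opposite strand, and the counts ignore strand, so a part of its reads is uncertain.

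Because 154Q-AXH differs from 154Q in the binding of CIC, the promoters of the members were searched for the CIC octamers. RefSeq promoters (250 bases before and 50 after the start, GRCm38.p6) were matched for 6 members, all but Kcnh3. That of Kcnh2, at chr5:24329542-24329841 (minus strand), lies inside the gene span given above, so the outermost start of Kcnh2 was not searched. The octamer TGAATGAA lies on either strand of 1.30% of 32851 mouse promoters and its variant TGAATGGA of 1.21%, and both were in 0 of the 6. With shares this low, 0 of 6 would be usual for any genes. Kcnh3 and sequence outside these windows were not searched, so no conclusion on CIC sites is drawn. The RFX core GTTGCC, in 12.5% of promoters, was in that of Kcnh7. The 6 promoters had a GC content of 65.3% to 74.3%, with a median of 52.7% over the table. The promoters of the 2 matched members that were called in 154Q-AXH mice are shown, 5′ to 3′ in the direction of the gene and all in lower case since no octamer is in them, from chr11:100759729-100760028 (minus strand) and chr12:75177283-75177582 (minus strand).

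Kcnh4: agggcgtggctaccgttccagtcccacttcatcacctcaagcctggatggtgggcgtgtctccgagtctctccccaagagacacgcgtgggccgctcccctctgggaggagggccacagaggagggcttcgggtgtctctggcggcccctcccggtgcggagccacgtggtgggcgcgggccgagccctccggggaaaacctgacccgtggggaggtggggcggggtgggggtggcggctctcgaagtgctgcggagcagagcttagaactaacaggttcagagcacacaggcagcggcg

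Kcnh5: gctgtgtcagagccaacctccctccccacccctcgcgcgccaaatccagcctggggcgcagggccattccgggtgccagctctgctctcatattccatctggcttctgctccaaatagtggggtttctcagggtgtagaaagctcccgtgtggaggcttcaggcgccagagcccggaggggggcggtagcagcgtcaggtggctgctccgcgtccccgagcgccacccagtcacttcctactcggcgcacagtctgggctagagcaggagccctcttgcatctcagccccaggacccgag

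To see where each channel is normally expressed, levels of the 4 WT mice were compared between regions. Levels are CPM per kilobase of exon, so that genes can be set beside each other. All 7 members differed between WT regions (edgeR quasi-likelihood test, adjusted p from 9.7e-20 for Kcnh3 to 2.2e-07 for Kcnh1), beside 91.6% of the 22200 genes tested. Of the 70 differences between pairs of regions, 55 were called. The share of all genes called was 65.4% for brainstem against cerebellum, 63.6% for hippocampus against cerebellum, 71.8% for striatum against cerebellum, 70.3% for cortex against cerebellum, 60.7% for hippocampus against brainstem, 66.1% for striatum against brainstem, 65.1% for cortex against brainstem, 58.2% for striatum against hippocampus, 55.4% for cortex against hippocampus and 10.7% for cortex against striatum.

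Kcnh3 was the forebrain channel with the highest level of the family. It reached 37.0 ± 5.09 CPM per kb (SD, n = 4) in cortex and 36.1 ± 2.98 in striatum, which did not differ beyond their spread (log2 difference 0.02 ± 0.12 SE, adjusted p = 0.930). Hippocampus followed at 14.8 ± 1.02, then cerebellum at 0.338 ± 0.0896 and brainstem at 0.175 ± 0.0355, and each of these steps was called. The cortical level was 109.6 times that of cerebellum and 211.6 times that of brainstem, so the regions with the largest fold in mutant mice were those with the least Kcnh3. The WT striatal libraries other than WT-220 had cortical markers close to those of cortex, as given above. Striatal Kcnh3 was at 177.4 CPM in WT-220 and at 206.4 to 218.8 CPM in those. The part of cortical markers in the striatal levels of the members was not tested. Kcnh4, the second ELK channel, was highest in striatum at 8.94 ± 0.838 CPM per kb, followed by cortex at 5.37 ± 1.28 (adjusted p = 0.0276) and hippocampus at 1.04 ± 0.531. It had few reads in brainstem (20 to 47 read pairs a library) and cerebellum (9 to 25 read pairs), which did not differ beyond their spread (adjusted p = 0.168). Kcnh8, the third ELK channel, was a brainstem gene at 0.760 ± 0.0835 CPM per kb, and from 0.0384 to 0.129 CPM per kb on average elsewhere.

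Among the ERG channels, Kcnh2 was highest in brainstem at 26.5 ± 0.982 CPM per kb, the highest value of any member there, and lowest in hippocampus at 5.15 ± 0.446. Its levels in striatum (10.2 ± 0.0618) and cortex (9.14 ± 1.05) did not differ beyond their spread (adjusted p = 0.165). Kcnh7 ran from 8.50 ± 1.22 CPM per kb in cortex through 6.53 ± 3.01 in striatum, 5.58 ± 0.984 in hippocampus and 3.89 ± 0.299 in brainstem, and no neighbours in this order differed until the step to cerebellum at 0.969 ± 0.130 (adjusted p = 2.0e-06). Kcnh6 was at 1.46 ± 0.136 in brainstem and from 0.255 to 1.18 CPM per kb on average elsewhere.

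The EAG channel Kcnh1 was expressed in every region, from 13.7 ± 2.87 CPM per kb in cortex and 12.2 ± 3.67 in striatum to 4.01 ± 0.357 in brainstem, with hippocampus (8.39 ± 0.688) and cerebellum (7.96 ± 0.893) not differing beyond their spread (adjusted p = 0.660). Kcnh5 was at 4.45 ± 0.813 in cortex, 3.44 ± 0.574 in brainstem and 3.41 ± 1.36 in striatum with no neighbouring pair called, lower in hippocampus at 1.22 ± 0.297, and at 0.126 ± 0.0152 in cerebellum (34 to 46 read pairs). The striatal spread of Kcnh1, Kcnh5 and Kcnh7 came with WT-220, whose values of 48.1, 5.69 and 31.1 CPM lay below the other WT mice (96.0 to 104.6, 14.6 to 18.1 and 108.3 to 130.4 CPM). The striatal and cortical markers of that library, given above, stood apart as well, and their part in these values was not tested. The plot of WT levels shows these patterns, with the hindbrain points of Kcnh3 far below those of the forebrain.

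**Figure D1:**
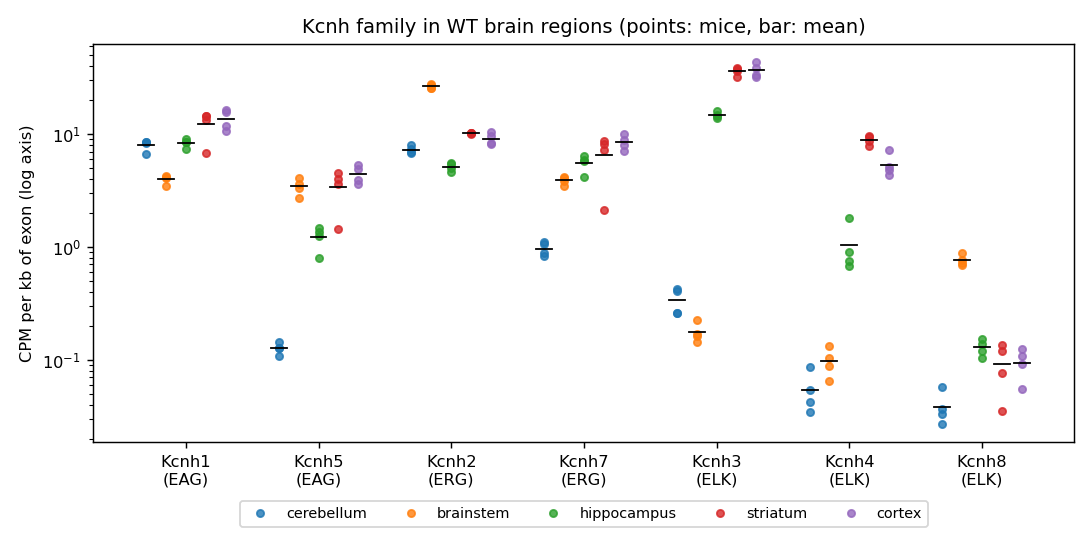
Level of each Kcnh gene in the 5 regions of the 4 WT mice, in CPM per kb of exon on a log axis, with 1 point for each mouse and a bar at the mean, by family group. Kcnh3 is at 37.0 in cortex and 0.175 in brainstem, while Kcnh2 and Kcnh8 are highest in brainstem.

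Kcnh3 was then followed by genotype in CPM within each region. In cerebellum, the WT libraries had 1.54, 2.44, 2.42 and 1.51 CPM (at least 99 read pairs each), the 154Q libraries 0.406, 0.676, 0.403 and 0.629 CPM (32 to 67 read pairs) and the 154Q-AXH libraries 0.981, 0.941, 0.706 and 0.680 CPM (56 to 99 read pairs). No mutant library reached the lowest WT library, and every 154Q-AXH library was above every 154Q library. The 154Q mean was 26.7% of the WT mean (log2 fold change -1.90 ± 0.23 SE) and the 154Q-AXH mean 41.8% (-1.27 ± 0.21). In 154Q-AXH mice Kcnh3 was called lower than in WT (edgeR, adjusted p = 0.0065), a call that was lost with counts of 1 strand (-0.99, adjusted p = 0.0611).

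In brainstem, the WT libraries had 0.838, 1.31, 0.952 and 0.994 CPM, the 154Q libraries 0.358, 0.405, 0.304 and 0.324 CPM and the 154Q-AXH libraries 0.575, 0.355 and 0.625 CPM. All mutant libraries were below the WT range, and the 154Q-AXH range overlapped that of 154Q. The means were 34.0% (log2 fold change -1.57 ± 0.22 SE) and 50.6% of WT (-0.99 ± 0.22). The difference of 154Q-AXH from WT was not called (edgeR, adjusted p = 0.3003), in a region where only 3 of 21754 genes were, and DESeq2 called it (adjusted p = 0.0427).

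Since Kcnh3 is mainly a forebrain gene, forebrain markers were set beside its hindbrain values. In cerebellum, the 4 cortical markers summed to 21.3 to 24.9 CPM in WT, 21.7 to 26.7 CPM in 154Q and 21.5 to 23.0 CPM in 154Q-AXH libraries, with Neurod6, a gene of forebrain excitatory neurons, at 10.0 to 11.5, 9.78 to 11.4 and 8.54 to 10.2 CPM. These ranges overlapped across the genotypes. In brainstem, the cortical markers summed to 30.1 to 32.9, 28.9 to 31.7 and 29.2 to 31.8 CPM, and the 6 striatal markers to 169.1 to 188.4, 130.4 to 179.8 and 152.3 to 173.5 CPM. These ranges overlapped too, with 1 of the striatal markers called lower in 154Q and 0 in 154Q-AXH brainstem by edgeR, and the part of the striatal markers in the brainstem result was not tested. The 6 Purkinje cell markers moved with genotype in cerebellum, at 7873 to 8813 CPM in WT, 6264 to 6851 CPM in 154Q and 6834 to 7315 CPM in 154Q-AXH, and 5 of the 6 were called lower in 154Q and 2 in 154Q-AXH mice. None of these lists had a marker at 0, and the part of the Purkinje cell markers in the cerebellar result was not tested.

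In hippocampus, the WT libraries had Kcnh3 at 94.6, 80.6, 85.1 and 83.2 CPM, the 154Q libraries at 51.0, 54.6, 49.4 and 28.9 CPM and the 154Q-AXH libraries at 56.8, 58.3, 57.7 and 54.8 CPM. The lowest value was that of 154Q-76, the library with brainstem markers, and the remaining 154Q libraries averaged 51.7 ± 2.66 CPM (SD, n = 3), which is 60.2% of WT. In 154Q the log2 fold change was -0.90 ± 0.15 SE with that library and -0.74 ± 0.06 without it. The 154Q-AXH mean was 66.3% of WT, at -0.59 ± 0.15 and not called with all libraries (edgeR, adjusted p = 0.0701), and at -0.60 ± 0.06 and called in the fit without 154Q-76 (adjusted p = 0.00028). Every 154Q-AXH library lay below every WT library. In the fit without 154Q-76, 3.61% of all genes were called in 154Q-AXH against WT. The 4 cortical markers in hippocampus did not overlap WT either, at 326.1 to 378.3 CPM in WT, 142.8 to 275.9 CPM in 154Q and 232.5 to 295.5 CPM in 154Q-AXH libraries, with none at 0. Of these, 1 was called lower in 154Q and 0 in 154Q-AXH mice. The 5 hippocampal markers summed to 699.5 to 1034 CPM in WT, 424.7 to 693.1 CPM in 154Q and 632.9 to 993.9 CPM in 154Q-AXH libraries. By edgeR, 2 of them were called lower in 154Q and 0 in 154Q-AXH mice. The part of both lists in the hippocampal result was not tested.

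In striatum, the WT libraries had 215.0, 206.4, 177.4 and 218.8 CPM of Kcnh3, the 154Q libraries 131.7, 144.9, 121.8 and 123.8 CPM and the 154Q-AXH libraries 125.9, 129.97, 114.3 and 165.3 CPM. The mutants overlapped each other and not WT. This was a log2 fold change of -0.65 ± 0.11 SE in 154Q and -0.61 ± 0.11 in 154Q-AXH mice, the latter called (edgeR, adjusted p = 0.0169). The call held without WT-220 (adjusted p = 0.0058) and without 154Q-AXH-217 (adjusted p = 0.034), and it was lost without WT-221 (0.0603), 154Q-AXH-207 (0.0673) or 154Q-AXH-209 (adjusted p = 0.0761), with values of -0.57 to -0.59. It was also lost with the number series in the model (-0.57, adjusted p = 0.0892). The 6 striatal markers summed to 1553 to 5388 CPM in WT, 554.2 to 1005 CPM in 154Q and 522.4 to 2877 CPM in 154Q-AXH striatum. The 5 astrocyte markers summed to 964.8 to 1080 CPM in WT, 813.0 to 877.6 CPM in 154Q and 859.9 to 929.5 CPM in 154Q-AXH, below WT in every mutant library, with 1 called lower in 154Q and 0 in 154Q-AXH mice by edgeR. None of these markers was at 0, and their part in the striatal Kcnh3 result was not tested.

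In cortex, the WT libraries had 245.6, 182.1, 187.9 and 215.8 CPM, the 154Q libraries 150.9, 158.3, 129.8 and 157.8 CPM and the 154Q-AXH libraries 127.6, 134.8, 152.0 and 146.1 CPM. Again no mutant library reached the WT range and the mutants overlapped each other. The log2 fold change was -0.48 ± 0.09 SE in 154Q and -0.57 ± 0.09 in 154Q-AXH mice (edgeR, adjusted p = 0.0013 for the latter). In 154Q-AXH mice it was -0.55 without WT-221 (adjusted p = 0.0062), -0.49 with the labels of the cortical pair exchanged (adjusted p = 0.0037) and -0.53 with that pair left out (adjusted p = 0.0090), so it stayed called in each. The 5 astrocyte markers were below WT in every mutant library, at 1148 to 1269 CPM in WT, 921.5 to 1058 CPM in 154Q and 927.6 to 1140 CPM in 154Q-AXH cortex, and 4 of them were called lower in 154Q and 0 in 154Q-AXH mice. The 8 neuron markers summed to 7584 to 8221 CPM, 6483 to 7317 CPM and 6796 to 7931 CPM in the same order, with 4 called lower and 1 higher in 154Q, and 1 lower and 1 higher in 154Q-AXH mice. None was at 0, and the part of these markers in the cortical Kcnh3 result was not tested.

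**Figure D2:**
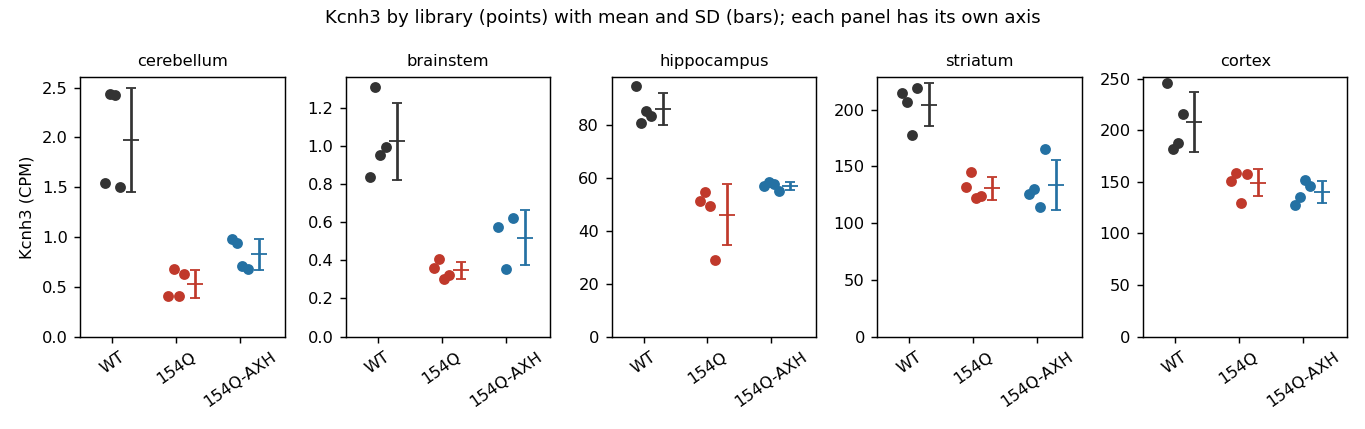
Kcnh3 in CPM in each library (points), by region and genotype, with the mean and SD (bars, n = 4, and n = 3 for 154Q-AXH brainstem). Every panel starts at 0 and has its own axis, and in all 5 regions each mutant library lies below every WT library.

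The mutants were also compared directly, 154Q-AXH with 154Q. Kcnh3 was chosen for low values in the 154Q libraries, so this comparison is not independent of the choice and its values are a description without a test. For Kcnh3 the log2 difference was 0.63 ± 0.27 SE in cerebellum, 0.58 ± 0.27 in brainstem, 0.31 ± 0.15 in hippocampus (0.15 ± 0.06 without 154Q-76), 0.04 ± 0.11 in striatum and -0.09 ± 0.09 in cortex. Across the family, Kcnh3 included, 0 of the 35 member and region combinations were called by edgeR and 0 by DESeq2, with 7 at an unadjusted p under 0.05. The 7 were Kcnh1, Kcnh3 and Kcnh8 in cerebellum, Kcnh2 and Kcnh3 in brainstem, Kcnh2 in hippocampus and Kcnh5 in striatum. Those of Kcnh3 follow the choice of the family and are no test, and that of Kcnh2 in hippocampus includes 154Q-76, the library with brainstem markers. Of all genes tested, 1586 of 20874 had such an unadjusted p in cerebellum, 1163 of 21754 in brainstem and 2356 of 21454 in hippocampus. In striatum it was 601 of 18408, and in cortex 1241 of 18610. Over all genes, 0.0335% were called in this comparison in cerebellum and 0% in brainstem, 0% in hippocampus, 0% in striatum and 0% in cortex, which is 7 genes in cerebellum and 0 elsewhere. DESeq2 called 0.752% of genes in cerebellum, 0.154% in brainstem, 0.259% in hippocampus, 0% in striatum and 0% in cortex.

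Against WT, 6 of the 35 combinations were called in 154Q-AXH mice, each with a lower level. They were Kcnh3 in cerebellum, striatum and cortex, Kcnh4 in striatum and cortex, and Kcnh5 in cortex. The calls of Kcnh3 are not independent of the choice of the family, and in cerebellum Kcnh3 was the only member called. With the number series of the mice in the model, 3 of the 6 were called, and Kcnh3 in striatum, Kcnh4 in striatum and Kcnh5 in cortex were not (edgeR, adjusted p = 0.0892, 0.117 and 0.170). Of all genes tested, 2.21% were called in cerebellum, 0.0138% in brainstem, 1.3% in hippocampus, 1.35% in striatum and 7.15% in cortex. The median log2 fold change of the 7 members was -0.03 in cerebellum, -0.10 in brainstem, -0.34 in hippocampus, -0.37 in striatum and -0.37 in cortex, beside medians of -0.01 to 0.00 over all genes. For 154Q against WT, the contrast behind the choice of the family, no call is drawn for the members, since Kcnh3 was chosen on it. An adjusted p under 0.05 was given to 5.22% of all genes in cerebellum, 0.538% in brainstem, 5.91% in hippocampus, 5.69% in striatum and 11.1% in cortex. Both comparisons use the same WT libraries. DESeq2 called 11 combinations in 154Q-AXH mice, adding Kcnh3 in brainstem, Kcnh3, Kcnh4 and Kcnh7 in hippocampus and Kcnh1 in cortex. DESeq2 also called more of all genes, 6.16% in cerebellum, 0.405% in brainstem, 4.84% in hippocampus, 2.86% in striatum and 9.83% in cortex.

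Kcnh4 was called lower in striatum and cortex of 154Q-AXH mice. In striatum, the WT libraries had 37.2, 33.9, 37.1 and 30.8 CPM, the 154Q libraries 15.1, 14.7, 10.8 and 13.4 CPM and the 154Q-AXH libraries 8.92, 16.9, 24.4 and 14.8 CPM. All mutant libraries were below WT, and 154Q-AXH spread most. The means were 38.9% of WT in 154Q (log2 fold change -1.36 ± 0.22 SE) and 46.8% in 154Q-AXH mice (-1.09 ± 0.22, edgeR, adjusted p = 0.0320). That call was lost when any of 8 of the 12 striatal libraries was left out (WT-70, WT-77, WT-221, 154Q-69, 154Q-71, 154Q-76, 154Q-AXH-209 or 154Q-AXH-218), with folds from -1.15 to -1.05 and adjusted p from 0.0512 to 0.102. It held without WT-220 (-1.06, adjusted p = 0.0348) and without 154Q-AXH-217 (-1.35, adjusted p = 0.0043). The striatal markers, whose sums are given above, were also lower on average in both mutants, and the 154Q-AXH range overlapped that of WT. The 154Q-AXH library with the most Kcnh4, 154Q-AXH-217, also had the most striatal markers of its group, whereas WT-220, with 5388 CPM of them, had Kcnh4 within the range of the other WT libraries. The part of these markers in the striatal result was not tested.

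In cortex, Kcnh4 was at 28.0, 19.6, 16.6 and 18.7 CPM in WT, at 9.54, 15.5, 7.99 and 12.99 CPM in 154Q and at 7.52, 8.82, 8.68 and 10.8 CPM in 154Q-AXH libraries. The mutant libraries again lay below the WT range. Against WT, Kcnh4 had a log2 fold change of -0.84 ± 0.19 SE in 154Q and -1.20 ± 0.19 in 154Q-AXH mice (edgeR, adjusted p = 0.0014). The latter was -1.25 without WT-221 (adjusted p = 0.0038), -0.99 with the cortical pair exchanged (adjusted p = 0.0091) and -1.13 with it left out (adjusted p = 0.0102). The striatal markers in cortex summed to 173.0 to 208.3 CPM in WT, 120.0 to 168.1 CPM in 154Q and 122.0 to 206.7 CPM in 154Q-AXH libraries, and 2 of the 6 were called lower in each mutant. Their part in the cortical Kcnh4 values was not tested.

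Hippocampal Kcnh4 was at 7.31, 2.703, 2.98 and 3.58 CPM in WT, 2.40, 1.81, 1.43 and 1.12 CPM in 154Q and 1.87, 1.62, 2.87 and 1.90 CPM in 154Q-AXH libraries. WT-70 was well above the rest, and 154Q-AXH overlapped WT. The log2 fold change was -1.30 ± 0.33 SE in 154Q (-1.14 ± 0.35 without 154Q-76), and -1.01 ± 0.33 in 154Q-AXH mice, which was not called (edgeR, adjusted p = 0.162). In brainstem and cerebellum Kcnh4 had 8 to 47 read pairs a library, and no difference was detectable at this depth.

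**Figure D3:**
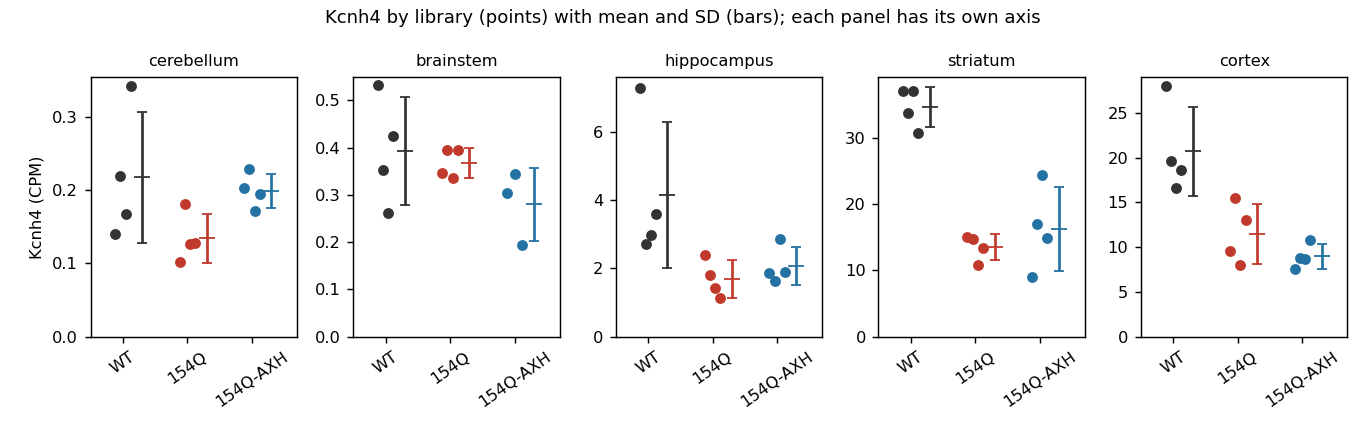
Kcnh4 in CPM in each library (points), by region and genotype, with the mean and SD (bars, n = 4, and n = 3 for 154Q-AXH brainstem). Each panel has its own axis from 0, and mutant libraries lie below all WT libraries in striatum and cortex but not in the hindbrain, where levels are at most 0.532 CPM.

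Kcnh8, the remaining ELK channel, was not called in any region by edgeR or DESeq2 in 154Q-AXH against WT, with striatum at an unadjusted p under 0.05. Its striatal level was 0.341, 0.157, 0.593 and 0.536 CPM in WT, 1.02, 0.717, 1.19 and 0.915 CPM in 154Q and 0.501, 1.04, 1.36 and 0.432 CPM in 154Q-AXH libraries. The 154Q libraries were above WT and the 154Q-AXH libraries overlapped it, with 5 to 51 read pairs a library. Its log2 fold change was 1.16 ± 0.39 SE in 154Q and 0.97 ± 0.42 in 154Q-AXH mice, not called (edgeR, adjusted p = 0.345). In brainstem, where Kcnh8 is highest, it was at 3.17 to 4.03 CPM in WT, 2.75 to 3.95 CPM in 154Q and 3.20 to 4.06 CPM in 154Q-AXH libraries, which overlapped.

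Of the EAG channels, Kcnh5 was lower in the cortex of both mutants. It was at 21.3, 14.3, 15.5 and 19.3 CPM in WT, 9.82, 12.8, 12.7 and 13.2 CPM in 154Q and 12.001, 8.79, 14.8 and 12.6 CPM in 154Q-AXH cortex. The 154Q libraries were below the WT range, and 1 of the 154Q-AXH libraries, 154Q-AXH-217, was within it. Kcnh5 had a log2 fold change of -0.53 ± 0.15 SE in 154Q and -0.54 ± 0.15 in 154Q-AXH mice (edgeR, adjusted p = 0.0400). The latter call was lost without WT-70 (-0.44, adjusted p = 0.117), WT-221 (-0.49), 154Q-AXH-207 (-0.54), 154Q-AXH-209 (-0.42) or 154Q-AXH-218 (-0.56), and with the cortical pair exchanged (-0.50, adjusted p = 0.0534) or left out (-0.54, adjusted p = 0.109). In cerebellum, Kcnh5 was at 0.529, 0.531, 0.436 and 0.589 CPM in WT, 0.470, 2.18, 1.61 and 0.641 CPM in 154Q and 0.757, 1.28, 0.968 and 0.547 CPM in 154Q-AXH libraries. Some mutant libraries were well above WT and others within its range, and the log2 fold change of 0.81 ± 0.47 SE in 154Q-AXH mice was not called (edgeR, adjusted p = 0.459). In striatum, Kcnh5 in 154Q-AXH mice was at -0.62 ± 0.29 with all libraries (adjusted p = 0.406) and at -0.89 ± 0.17 and called in the fit without WT-220 (adjusted p = 0.0147), which called 3.27% of all genes. Without 154Q-AXH-217 it was at -0.49 ± 0.30 and not called (edgeR, adjusted p = 0.509), in a fit that called 1.5% of all genes.

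Kcnh1 was not called in any region by edgeR with all libraries, with cortex at an unadjusted p under 0.05 in 154Q-AXH against WT and called by DESeq2. Its log2 fold change in 154Q-AXH mice ran from -0.37 ± 0.13 SE in cortex (edgeR, adjusted p = 0.101) to -0.02 ± 0.09 in brainstem, and in 154Q mice from -0.25 to 0.20. In striatum it was -0.31 ± 0.19 in 154Q-AXH mice with all libraries (adjusted p = 0.570), and -0.51 ± 0.08 and called without WT-220 (adjusted p = 0.0070). Without 154Q-AXH-217 it was -0.26 ± 0.21 and not called (edgeR, adjusted p = 0.617).

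The ERG channels had 0 calls in 154Q-AXH mice by edgeR, with Kcnh2 in brainstem and striatum and Kcnh7 in hippocampus and cortex at an unadjusted p under 0.05, and DESeq2 called Kcnh7 in hippocampus. Kcnh2 in brainstem, its main region, was at 135.7, 124.9, 132.9 and 128.4 CPM in WT, 112.0, 109.5, 112.9 and 117.1 CPM in 154Q and 124.8, 116.6 and 124.8 CPM in 154Q-AXH libraries. The 154Q libraries were below WT by a log2 fold change of -0.21 ± 0.04 SE. The 154Q-AXH libraries lay between or at the edge of the other groups, at -0.10 ± 0.04 and not called (edgeR, adjusted p = 0.728). In striatum, Kcnh2 was at 47.4 to 49.1 CPM in WT, 34.5 to 41.4 CPM in 154Q and 36.4 to 47.5 CPM in 154Q-AXH libraries, where 1 library overlapped WT (-0.27 ± 0.09, adjusted p = 0.187). Kcnh7 had its largest difference in hippocampus, with 91.5, 64.1, 89.5 and 98.3 CPM in WT and 64.4, 59.3, 58.2 and 31.0 CPM in 154Q-AXH libraries, which overlapped at 1 library each. That value was -0.69 ± 0.19 and not called (edgeR, adjusted p = 0.0954), also without 154Q-76 (adjusted p = 0.0674). In striatum Kcnh7 in 154Q-AXH mice was at -0.37 ± 0.36 with all libraries, -0.66 ± 0.23 without WT-220 and -0.13 ± 0.34 without 154Q-AXH-217, and it was not called in any of these fits (edgeR, adjusted p = 0.771, 0.161 and 0.913).

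The hippocampal library of 154Q-76 stood apart in the members that mark brainstem. Kcnh2 was at 73.8 CPM there, against 21.3 to 24.8 CPM in the other 154Q hippocampal libraries and 124.9 to 135.7 CPM in WT brainstem. Kcnh8 was at 2.51 CPM, against 0.428 to 0.991 CPM and 3.17 to 4.03 CPM in the same order. Kcnh3 and Kcnh1, which are lower in brainstem than in hippocampus, were at 28.9 and 41.2 CPM, below the 49.4 to 54.6 and 55.3 to 63.7 CPM of the other 154Q libraries. Each of these values lay between those of hippocampus and brainstem. With that library, the log2 fold change of 154Q against WT in hippocampus was 0.52 ± 0.34 SE for Kcnh2 and 1.10 ± 0.49 for Kcnh8, and without it -0.11 ± 0.14 and 0.42 ± 0.38. In the plot of brainstem markers it sits apart from the other hippocampal libraries.

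**Figure D4:**
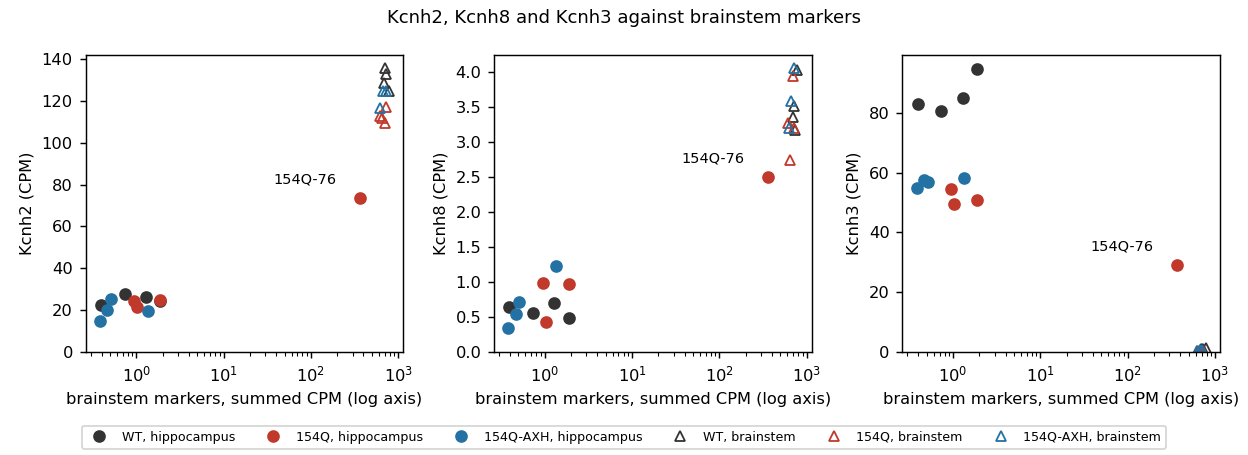
Kcnh2, Kcnh8 and Kcnh3 (CPM) against the summed CPM of 7 brainstem markers (log axis) in hippocampal libraries (filled circles) and brainstem libraries (open triangles), coloured by genotype. The hippocampal library of mouse 154Q-76, at 363.7 CPM of markers, lies between the 2 regions for all 3 genes.

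**Figure D5:**
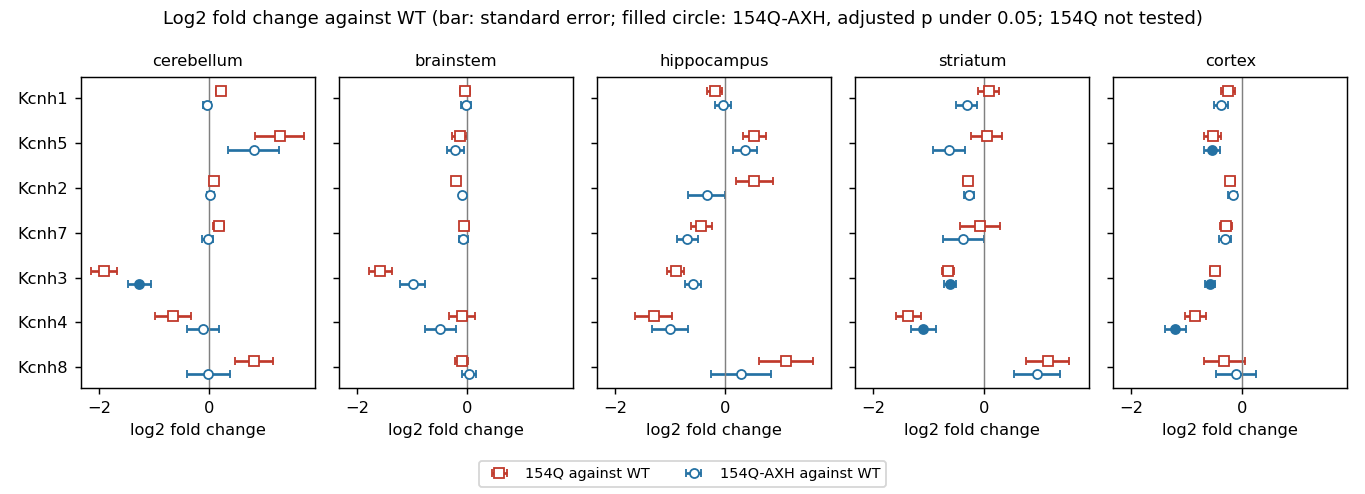
Log2 fold change against WT of the 7 members in each region for 154Q and 154Q-AXH mice, with the standard error as a bar. Circles are 154Q-AXH, filled for an adjusted p under 0.05 (edgeR), and open squares are 154Q, which was not tested. Kcnh3 lies below 0 in all 5 regions in both mutants, and Kcnh4 is at -0.84 to -1.36 in hippocampus, striatum and cortex.

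Whether a member responded differently by region was tested for 154Q-AXH against WT. The choice of the family used the same WT libraries and the size of the hindbrain fold in 154Q mice, so for Kcnh3 this test is not independent of it. The fold of Kcnh3 ran from -1.27 in cerebellum to -0.57 in cortex, but its interaction of genotype and region was not called (edgeR, adjusted p = 0.349, unadjusted p = 0.0210). Of the 7 members, 0 were called, 2 had an unadjusted p under 0.05 (Kcnh3 and Kcnh5), and 1.33% of all genes were called. DESeq2, which called 2.71% of all genes, called Kcnh5 (adjusted p = 0.0198), whose folds were 0.81 in cerebellum and -0.54 in cortex, and did not call Kcnh3 (adjusted p = 0.0995). With the mouse as a block the adjusted p was 0.410 for Kcnh3 and 0.248 for Kcnh5.

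Other genes tied to these channels were followed by lists. Of 15 genes of proteins that bind or process Kcnh channels (KCNE subunits and others), 13 or 14 were tested in each region, and 0 were called by edgeR in 154Q-AXH against WT or against 154Q. Over the 5 regions, 6 of the 67 values against WT and 1 against 154Q had an unadjusted p under 0.05, and DESeq2 called 1 against WT and 0 against 154Q. The same count, 0 of 4, held for the related HCN channels, which carry the pacemaker current, and for the KCNQ channels of the M-current, which also restrain firing near rest. Of the 20 values of each list against WT, 3 of the HCN and 7 of the KCNQ channels had an unadjusted p under 0.05, and DESeq2 called 2 (Hcn3 in hippocampus and cortex) and 3. Against 154Q, 3 and 0 had an unadjusted p under 0.05, and DESeq2 called 0 of both. Of all genes tested against WT, 3151 of 20874 had an unadjusted p under 0.05 in cerebellum, 1465 of 21754 in brainstem and 3193 of 21454 in hippocampus. In striatum it was 2320 of 18408, and in cortex 3821 of 18610. The counts of all genes against 154Q are given above. The list medians against WT in 154Q-AXH mice were -0.08 to 0.03 for the partners, -0.19 to 0.07 for the HCN channels and -0.19 to 0.01 for the KCNQ channels. Without 154Q-76, 2 of the 4 HCN channels were called in 154Q-AXH against WT in hippocampus, where 3.61% of all genes were, with Hcn2 lower (log2 fold change -0.28 ± 0.07 SE, edgeR, adjusted p = 0.0427) and Hcn3 higher (0.31 ± 0.08, adjusted p = 0.0432). These list genes were named after their values were seen. In 154Q against WT, 3 KCNQ values (in cerebellum, brainstem and cortex) and 3 partner values (2 in hippocampus, 1 in cortex) had an adjusted p under 0.05 and were lower, and 3 HCN values, all of Hcn3, were higher. The shares of all genes for that contrast, given above, ran from 0.538% in brainstem to 11.1% in cortex. Against WT, Hcn3 in 154Q mice was higher in hippocampus (log2 fold change 0.54 ± 0.07 SE), striatum (0.51 ± 0.11) and cortex (0.42 ± 0.09), at 14.5 to 15.9 CPM in 154Q and 9.69 to 10.99 CPM in WT hippocampus. In 154Q-AXH mice it was at 0.31 ± 0.07, 0.37 ± 0.11 and 0.30 ± 0.09 in those regions, not called (edgeR, adjusted p = 0.0599, 0.141 and 0.0578).

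The genes most like Kcnh3 were found in 2 ways over 17540 genes tested in all 5 regions. By the Euclidean distance over the 10 log2 fold changes of both mutants against WT, they were Uox (1.54), Crh (1.59), Htr5b (1.60), Zbtb16 (1.63) and Rin1 (1.70). None of these had a fold as large as Kcnh3 in cerebellum, where 154Q values were -1.90 for Kcnh3 and -1.12, -0.89, -0.90, -0.85 and -1.04 for the 5 genes in that order. Uox, Crh and Htr5b had WT means of only 0.306, 0.307 and 0.266 CPM in cerebellum, so their folds there rest on low levels. In brainstem Crh had the larger fold, at -1.77 in 154Q and -1.41 in 154Q-AXH against -1.57 and -0.99 for Kcnh3. By Pearson's r of log2 CPM over the 59 libraries, they were Tmem121b (0.992), Mmp17 (0.991), Lrrc73 (0.988), Rprml (0.987) and Cacnb3 (0.985). These libraries fall into forebrain and hindbrain, so r is a description that mostly follows region. Tmem121b, for example, had 104.8 CPM in WT cortex and 6.47 CPM in WT cerebellum. In cerebellum, the log2 fold changes of the 5 genes in that order were -0.21, -0.68, -0.21, -1.38 and -0.08 in 154Q. In 154Q-AXH they were -0.01, -0.47, -0.28, -1.06 and -0.01.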

How the data were processed

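Read pairs were counted for each gene by the authors, who trimmed reads with Trimmomatic 0.36 and aligned them with STAR 2.7.2d to GRCm38.p6 with GENCODE M18, as the labels and methods state. The deposited values are whole counts with no normalization. Each table also has counts for each strand, of which the first held 48.9% to 50.1%, so the unstranded counts were used. The 4 summary lines and 1 transgene line were left out. Gene names, positions and exon lengths were taken from a later GENCODE release (M21) of the same build, which matched 54079 of 54232 genes.

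Group, region and mouse came from the sample labels. In each region, genes were kept by filterByExpr, libraries were scaled by TMM and the 3 genotypes were fitted with edgeR 4.0.16 (glmQLFit, glmQLFTest) in R 4.3.3. A gene was called at a Benjamini-Hochberg adjusted p under 0.05 over all genes tested. Standard errors are the absolute log2 fold change over the square root of F. CPM values use TMM library sizes of the region, and CPM per kb uses those over all 59 libraries and the exon length. DESeq2 1.42.0 was an alternative. The fitting code was tested on simulated data. Figures were drawn with matplotlib 3.10.9.

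Same-numbered libraries of different regions were taken as the same mouse, as labelled. For cortical WT-221 and hippocampal 154Q-76, the Xist values given above differ from those of the same-numbered libraries. The deviations of 116 same-numbered pairs from their group means correlated with a median of 0.14 (-0.41 to 0.66). The labelled mouse was a replicate block in an alternative of the fits over regions.

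The members and gene lists were chosen with earlier results of these data known. The text names all 7 members, the list genes called in 154Q-AXH mice by edgeR with all libraries (there were none), and the 5 genes most like Kcnh3 by each of 2 measures. Hcn2 and Hcn3 were named as well, after their values were seen. In the fits within a region, each library is 1 mouse by its label, and p-values measure the spread between mice. The fits over regions treated libraries of 1 mouse as independent, apart from the alternative with the mouse as a block. The p-values of those fits therefore do not measure the spread between mice alone. Some genes of the lists are not reported here by name.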

Additional observations from a re-analysis of the deposited data

Results flagged for a closer look

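In 5 of the 98 groups of 4 libraries, 1 library of a member lay far from the other 3 by Dixon's test of the gap over the range, which chance alone passes in about 1 in 20 groups. In hippocampus, Kcnh2 was at 73.8 CPM in 154Q-76 and 21.3 to 24.8 CPM in the other 154Q libraries, in the library with brainstem markers. In striatum, Kcnh1 was at 48.1 CPM in WT-220 and 96.0 to 104.6 CPM in the other WT libraries, in the library with the most striatal markers. Striatal Kcnh2 was at 34.5 CPM in 154Q-71 and 41.3 to 41.4 CPM in the other 154Q libraries. Cortical Kcnh5 was at 9.82 CPM in 154Q-69 and 12.7 to 13.2 CPM in the others. Cerebellar Kcnh8 was at 0.484 CPM in 154Q-71 and 0.227 to 0.245 CPM in the others.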

How the results depend on the processing

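Under the alternatives, 627 of 663 recomputed values kept their direction and their side of the threshold, and the causes of the other changes were not tested. The 6 calls of 154Q-AXH against WT became 11 with DESeq2, 3 once the number series was a covariate, and 4 to 8 when a library was left out. Kcnh3 in 154Q-AXH against WT was no longer called in cerebellum with counts of 1 strand (-0.99), nor in striatum with the number series as a covariate (-0.57) or only the 2 genotypes compared (-0.60). It was newly called with DESeq2 in brainstem (-0.98) and hippocampus (-0.60) and in hippocampus with only the 2 genotypes compared (-0.59). Leaving out each library gave -0.62 to -0.54 in hippocampus, called only without 154Q-76, and -0.73 to -0.53 in striatum. Against 154Q, Kcnh3 changed sign with the cortical pair exchanged (0.061) and ranged from -0.081 to 0.11 in striatum, where the value below 0 was that without 154Q-AXH-218. The interaction count of 0 became 1 with DESeq2. With the mouse as a replicate block, 7 members differed between WT regions and 0 had an interaction, so no call changed. The cerebellar and brainstem values of Kcnh3 rest on few read pairs (29 to 145 a library in brainstem).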
